A study of Rattus norvegicus with 5 samples.

Results

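The 54 Rab GTPase genes named on a rat microarray were compared between leukocytes washed from the blood vessels of allografted and isografted kidneys. A gene was a member where its annotation symbol was Rab followed by digits and at most 1 letter, so GTPase-activating proteins, effectors and other Rab-binding proteins were not members. The 54 genes carried 112 of the 23535 probes with a single gene, among 14871 named genes in all. Of the 112 probes, 107 were measured on 4 or 5 arrays, with both dye orientations among them, and covered 53 of the 54 genes. Rab35, which directs fast recycling from endosomes, was measured on 3 arrays only (0.03, -0.19 and -0.22 on replicates 3, 4 and 5) and was not tested.

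Allografts were kidneys of F344 rats (RT1lv1) transplanted into LEW rats (RT1l), and for isografts donor and recipient were both LEW. All animals were male, recipients in both groups had lost both of their own kidneys, and both groups shared pentobarbital anaesthesia, heparin, ampicillin and the absence of any immunosuppressive drug. Per the labels' protocols, mononuclear leukocytes were washed out of the graft's vessels and freed of granulocytes and red cells on a Percoll gradient; the labels used here give neither the day of collection nor the age of the animals. Each of 5 dual-colour arrays, called biological replicates 1 to 5, carried 1 allograft and 1 isograft sample, with the allograft in Cy5 on replicates 1, 3 and 5 and in Cy3 on replicates 2 and 4. The labels name no individual animals, so p-values measure the spread between these arrays.

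Rab proteins are small GTPases that label the membranes of the cell. Each cycles between a GTP-bound form, which sits on a vesicle and recruits effectors such as tethers and motors, and a GDP-bound form that a GDP dissociation inhibitor holds in the cytosol. In leukocytes they direct phagosome maturation, antigen uptake and presentation, and the release of cytotoxic and inflammatory granules.

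Values are log2 ratios of the RNA level, allograft over isograft, so 0 is no difference and 1 is a 2-fold higher level in allograft leukocytes. The direction of the deposited ratios is likely, not stated outright: it follows the order of the groups in the sample titles. Gene names rest on a spot order recovered from the data, in which probes of a shared accession correlated at 0.50, against 0.0017 with the row numbers as given. Counts of calls cannot settle the overall direction, since they bear only on the sign of replicates 2 and 4 relative to the other arrays. The overall direction was not tested. Of 34053 genes and unnamed probes, 421 passed in limma as deposited, 239 of them named genes, and 465 (1.37%) with replicates 2 and 4 turned to the opposite sign. Of those 465, 407 were unnamed spots whose ratios followed the dye and 21 were named genes, Rab23 among them (-1.77, adjusted p = 0.00441). Turning those replicates changed the sign of 31 of 53 Rab genes, 5 of the 11 with an unadjusted p under 0.05 among them. As deposited, Rab20, Rab32, Rab13, Rab5c and Rab33a stood at 0.98, 0.54, 0.54, 0.45 and -0.65, and turned at -0.06, -0.04, -0.09, -0.20 and 0.03. All ratios below are as deposited, without the 407 spots. With those spots left out, 255 named genes passed as deposited and 0 with replicates 2 and 4 turned. Spot intensities were not used here, so neither the level of a Rab gene nor the presence of leukocyte markers could be read, and fewer cells of a type cannot be told apart from less RNA per cell. Over all spots, the 4 pairs of arrays with the same dye orientation correlated at 0.386 to 0.671 and the 6 pairs of opposite orientation at -0.394 to -0.125. Over named genes the ranges were 0.272 to 0.645 and -0.0147 to 0.477. Of the marker lists for cells the preparation could hold, 6 of 8 platelet and 7 of 11 red cell genes fell, and 6 of 14 cytotoxic lymphocyte, 2 of 14 monocyte and 1 of 14 T cell genes (Cd3e, 1.10) rose. Among named genes 1.07% passed as higher and 0.712% as lower. At an unadjusted p under 0.05 there were 15.2% of named genes, with 1081 of 14329 lower. In the cytotoxic, monocyte and T cell lists, 4, 4 and 6 genes were below 0, with 2 in each at an unadjusted p under 0.05. None of 7 B cell genes passed, with a median of -0.57 and 4 lower at an unadjusted p under 0.05. None passed among 12 granulocyte, 8 mast cell, 12 endothelial and 10 kidney tubule and podocyte genes either (4, 1, 2 and 0 at an unadjusted p under 0.05). The platelet list mean was -2.41, -1.75, -1.55, -1.92 and -1.79 on replicates 1 to 5. The red cell mean was -2.35, -1.42, -1.25, -1.82 and -1.98, and the cytotoxic mean 0.81, 0.37, 0.71, 0.57 and 0.59. The monocyte mean was above 0 and the B cell mean below 0 on every array. Means of the T cell, granulocyte, mast cell, endothelial and kidney lists changed sign between arrays.

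No Rab gene passed the test between allograft and isograft leukocytes. In the limma fit over all genes and unnamed probes, 0 of 53 passed an adjusted p of 0.05 (Benjamini-Hochberg), against 1.78% of all named genes (1.07% higher and 0.712% lower) and 1.35% of all genes and unnamed probes tested (0.761% higher and 0.591% lower). At an unadjusted p under 0.05 there were 11, of which 7 were higher and 4 lower, or 20.8% of the family against 15.2% of named genes, and 13.3% of all genes and unnamed probes. The smallest adjusted p of the family was 0.145, for Rab20.

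As a family, the Rab genes lay where named genes in general lay. Their median log2 ratio was 0.02, with 27 above 0 and 26 below, and the median over all 14329 named genes tested was -0.01. The typical size of a ratio was the same, with a median absolute log2 ratio of 0.17 in both. The SD over genes was 0.32 for the Rab genes, whose ratios ran from -0.65 to 0.98, and 0.35 for named genes. An absolute ratio of 0.5 or more was reached by 6 of 53 Rab genes (11.3%) and by 9.53% of named genes. Of the 53 genes, 14 had the same sign on every array with a value, 8 above and 6 below, which is 26.4% against 21.1% of named genes.

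**Figure D1:**
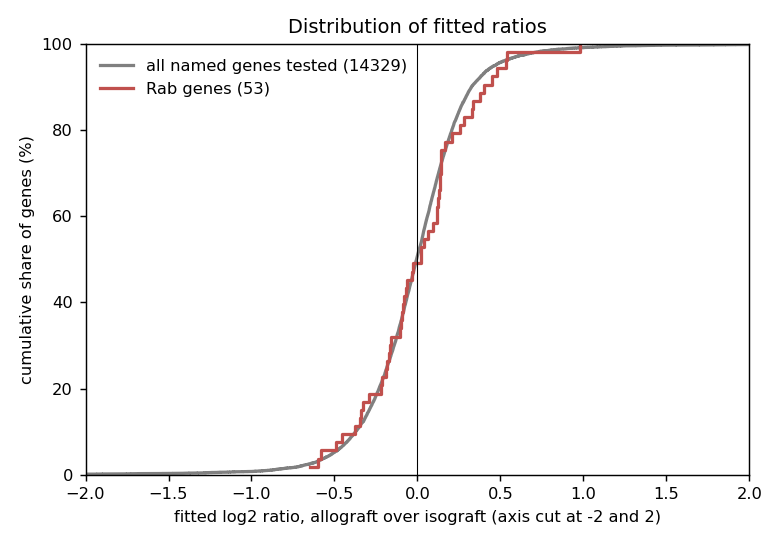
Cumulative share of genes (%) against the fitted log2 ratio, allograft over isograft, for the 53 Rab genes (red) and all 14329 named genes tested (grey). Both curves cross 0 near the middle of their genes, with medians of 0.02 and -0.01, and the axis ends short of the most extreme named genes.

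The intervals show how large a difference the arrays leave possible. The standard error of a Rab ratio had a median of 0.16 and ran from 0.13 to 0.42. For 49 of the 53 genes (92.5%) the 95% interval lay between -1 and 1, so that a 2-fold difference in either direction was outside it; the same held for 90.9% of named genes. The 4 genes whose interval reached past 2-fold were Rab20, Rab25, Rab33a and Rab39a. For comparison, the smallest absolute log2 ratio of any gene or probe that passed was 0.74, a size that Rab20 alone exceeded among Rab genes.

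The family's median moved little from array to array. It was -0.04, 0.10, -0.05, -0.02 and 0.01 on replicates 1 to 5, where the medians of named genes were 0.02, -0.00, 0.01, -0.02 and 0.01. The spread of the Rab genes was widest on replicates 1, 4 and 5 (SD 0.64, 0.68 and 0.61) and smaller on replicates 2 and 3 (0.42 in both), as it was for named genes (0.62, 0.66 and 0.65, and 0.39 in both).

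**Figure D2:**
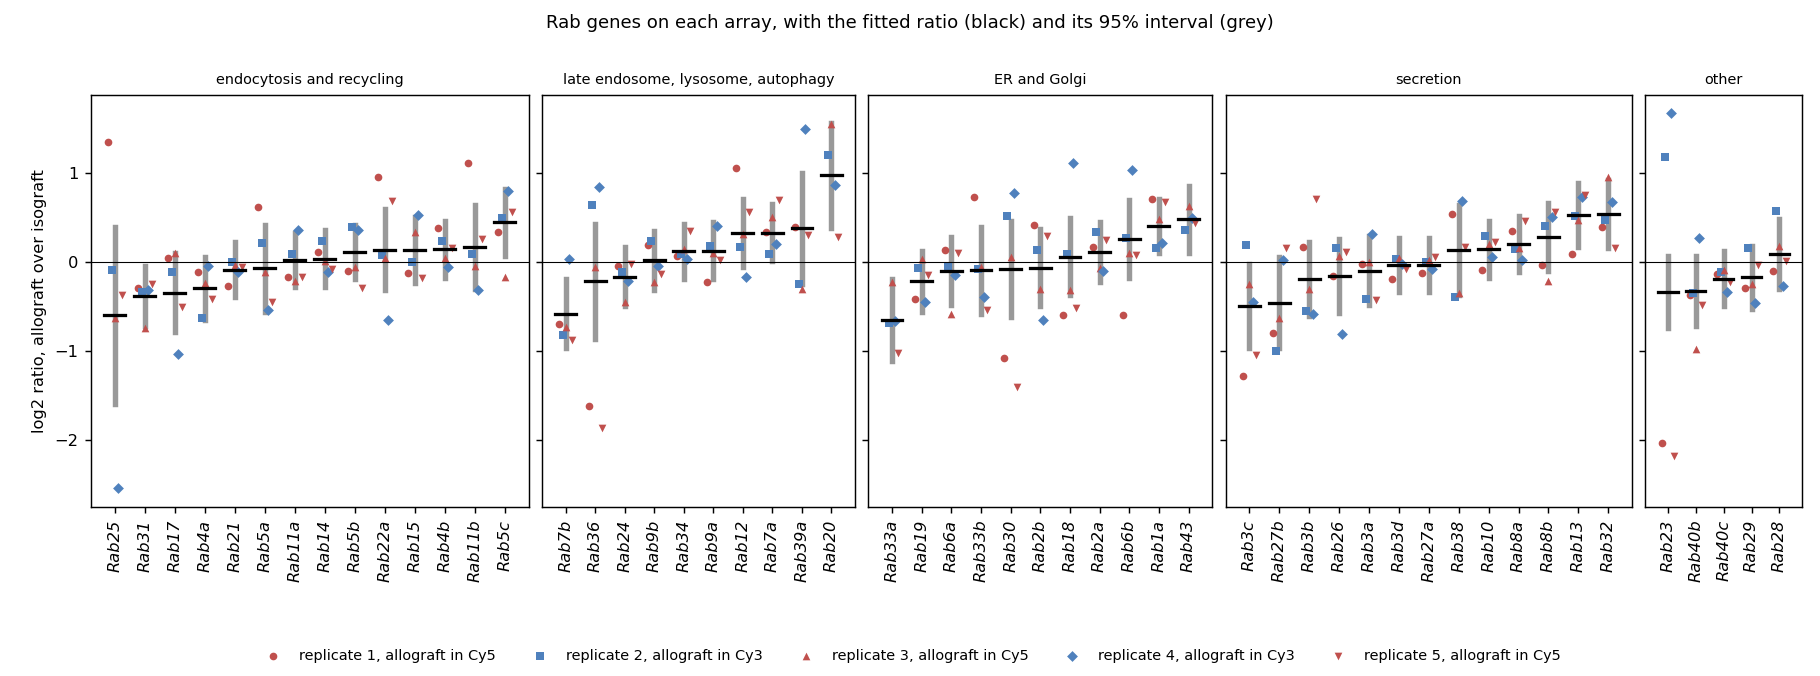
Log2 ratio, allograft over isograft, of each tested Rab gene on each array, grouped by the main site of action. Points are arrays (red, allograft in Cy5; blue, allograft in Cy3), the black line is the fitted ratio and the grey bar its 95% interval; most intervals cross 0, and Rab20 stands highest at 0.98.

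The genes of the late endosome, lysosome and autophagy held the highest ratio and one of the lowest. Of 10 tested, none passed, 7 were above 0 and the median was 0.13. Rab20, which acts in phagosome and endosome maturation and is induced by interferon gamma in mouse macrophages, stood at 1.20, 1.55, 0.87 and 0.28 on replicates 2 to 5 and had no value on replicate 1. All 4 arrays were above 0, with replicate 5 lowest. The fit, which rests on these 4 arrays and a single probe, gave 0.98 ± 0.24 (SE, n = 4 arrays; limma adjusted p = 0.145), with a 95% interval from 0.38 to 1.57. The mean was 0.92 on arrays with the allograft in Cy5 and 1.04 on those with it in Cy3. The mean of 14 monocyte and macrophage markers was also above 0 on every array (0.37, 0.13, 0.35, 0.12 and 0.23 on replicates 1 to 5). The markers were mixed: 10 were above 0, Cd14 and Aif1 rose, and 4 were below 0, with Ccr2 at -0.85 ± 0.18 and Cx3cr1 at -0.33 ± 0.13, both below 0 on 5 of 5 arrays. Their part in the ratio of Rab20 was not tested.

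The closely related Rab7a and Rab7b stood on opposite sides of 0. Rab7a, which drives late endosomes and phagosomes to fuse with lysosomes, was 0.33, 0.10, 0.50, 0.21 and 0.70 on replicates 1 to 5. Every array was above 0, and the fit gave 0.33 ± 0.13 (n = 5 arrays, limma adjusted p = 0.349). Rab7b, which in human monocytic cells controls traffic from late endosomes to the Golgi and dampens Toll-like receptor signalling, was -0.69, -0.82, -0.73, 0.04 and -0.88. Replicate 4 stood apart near 0 while the other 4 arrays lay close together. The fit gave -0.58 ± 0.17 (n = 5 arrays, limma adjusted p = 0.175), with -0.37 without replicate 2 and -0.79 without replicate 4. Rab7a exceeded Rab7b on 5 of 5 arrays, by 0.99 ± 0.52 (SD, n = 5) on the log2 scale, with an exact two-sided sign-flip permutation p of 0.0625. That is the smallest p that 5 arrays allow, and adjusted over the 18 paralog pairs compared it was 0.562.

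The other late endosomal genes were closer to 0 or varied between arrays. Rab12, which acts in the degradation of recycling receptors and in autophagy, stood at 0.33 ± 0.16, with arrays from -0.17 to 1.06. Rab39a, a phagosomal Rab, stood at 0.38 ± 0.26 with arrays from -0.30 to 1.50. Rab34, which acts in phagosome maturation, was above 0 on 5 of 5 arrays but small, at 0.12 ± 0.13. Rab9a and Rab9b, which return receptors from late endosomes to the Golgi, were at 0.13 and 0.02, and Rab24, an autophagy Rab, was at -0.16 ± 0.14 with all 5 arrays below 0. None of these had an unadjusted p under 0.05.

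Among 14 tested genes of endocytosis and recycling none passed, 8 were above 0 and the median was 0.03. Highest was Rab5c, 1 of the 3 isoforms that mark early endosomes, at 0.34, 0.50, -0.16, 0.80 and 0.56 on replicates 1 to 5. Replicate 3 alone was below 0, and the fit gave 0.45 ± 0.16 (n = 5 arrays, limma adjusted p = 0.278). Its 4 probes disagreed in size: 3 stood at 0.37, 0.65 and 0.76, and the fourth at 0.01. The isoforms Rab5a and Rab5b stood at -0.07 ± 0.21 and 0.12 ± 0.13. Rab5c exceeded Rab5b on 4 of 5 arrays, by 0.34 on average, with an exact permutation p of 0.188, where 5 arrays allow none below 0.0625.

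Rab31, which carries cargo from the Golgi to endosomes, was below 0 on every array, at -0.29, -0.34, -0.75, -0.31 and -0.24 on replicates 1 to 5. The fit gave -0.38 ± 0.14 (n = 5 arrays, limma adjusted p = 0.313). Its 2 probes differed, one at -0.76 ± 0.22 on 4 arrays and the other at -0.09 ± 0.15 on 5. The gene's ratio was -0.09 with the second probe alone. Without replicate 2 it was -0.16, also from the second probe alone. The first has no value on replicate 4 and was then left with 1 dye orientation, which the filter drops. Its nearest relative Rab22a stood at 0.14 ± 0.19.

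Rab25, a Rab of the apical recycling endosome of epithelial cells, had the largest SD over arrays of the tested Rab genes after Rab23 (1.40 and 2.06). It was 1.35, -0.09, -0.63, -2.55 and -0.37 on replicates 1 to 5, and the fit gave -0.60 ± 0.42 (n = 5 arrays, limma adjusted p = 0.606). The value rests on replicate 4: without it, the sign of the fitted ratio changed. Rab17, which also acts in epithelial recycling, stood at -0.35 ± 0.19, with replicate 4 again lowest at -1.03.

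The Rabs of general recycling had ratios between -0.29 and 0.17. Rab4a and Rab4b, which return cargo rapidly from early endosomes, stood at -0.29 ± 0.15 and 0.14 ± 0.14. Rab4a was below 0 on 5 of 5 arrays. It was below Rab4b on 4 of 5 arrays, by 0.44 on average (exact permutation p = 0.125, adjusted over pairs 0.562). Rab11a and Rab11b, of the slow recycling route, stood at 0.02 ± 0.13 and 0.17 ± 0.20. Rab14, which links endosomes and Golgi and was measured by 8 probes, stood at 0.04 ± 0.13, with probes from -0.36 to 0.35. Rab15 and Rab21 were at 0.14 and -0.09.

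Of 11 genes of the endoplasmic reticulum and Golgi none passed, with 5 above 0 and a median of -0.06. Rab1a, which governs transport from the endoplasmic reticulum to the Golgi, was 0.71, 0.16, 0.48, 0.22 and 0.67 on replicates 1 to 5. All arrays were above 0, and its 3 probes lay close together at 0.34, 0.45 and 0.48. The fit gave 0.40 ± 0.13 (n = 5 arrays, limma adjusted p = 0.226), the mean being 0.62 on arrays with the allograft in Cy5 and 0.19 on those with it in Cy3. Rat has several Rab1a pseudogenes, so hybridisation from related transcripts is possible and was not tested.

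Rab43, a Golgi Rab needed for cross-presentation by mouse dendritic cells, was 0.36, 0.63, 0.49 and 0.45 on replicates 2 to 5. The 4 values were close together, and the fit gave 0.48 ± 0.15 (n = 4 arrays, none on replicate 1; limma adjusted p = 0.243). Rab33a, a Golgi Rab related to the autophagy factor Rab33b, was -0.69, -0.22, -0.67 and -1.02 on the same arrays. All were below 0, and the fit gave -0.65 ± 0.19 (n = 4 arrays, limma adjusted p = 0.206), the lowest ratio of the family. Rab33b stood at -0.09 ± 0.21; Rab33a was below it on 4 of 4 arrays, with an exact permutation p of 0.125, the smallest that 4 arrays allow.

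The remaining Golgi genes had ratios between -0.21 and 0.26. Rab2a and Rab2b, of traffic between endoplasmic reticulum and Golgi, were at 0.12 and -0.06. Rab6a and Rab6b, of transport within and back from the Golgi, were at -0.10 and 0.26. The 4 probes of Rab6b ran from -0.28 to 0.50, and its arrays from -0.60 to 1.03. Rab18, of lipid droplets and the endoplasmic reticulum, was at 0.06 ± 0.18, although its arrays ran from -0.60 to 1.11. Its mean was -0.48 on arrays with the allograft in Cy5 and 0.60 on those with it in Cy3. Rab19 was at -0.21 ± 0.15, with 3 probes that ran from -0.84 to 0.12.

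The secretory genes, 13 in all, held none that passed, with 6 above 0 and a median of -0.03. Rab32, which directs traffic to lysosome-related organelles and takes part in the defence of macrophages against bacteria, was 0.40, 0.48, 0.96, 0.67 and 0.16 on replicates 1 to 5. All arrays were above 0, and the fit gave 0.54 ± 0.16 (n = 5 arrays, limma adjusted p = 0.199). Its 2 probes disagreed. The first was 1.19, 0.50, 0.96, 1.02 and 0.97 and, fitted by itself, was the only 1 of the 107 Rab probes to pass (0.90 ± 0.15, limma adjusted p = 0.0435), against 1.42% of all 41630 single probes. Among genes and probes measured on all 5 arrays, the second probe drops out, so Rab32 rests on the same first probe. Its ratio was again 0.90 and it passed (limma adjusted p = 0.0380), as did 1.68% of those tested. The second was -0.39, 0.45, 0.33 and -0.66 on replicates 1, 2, 4 and 5, with no value on replicate 3, and its ratio was -0.07 ± 0.16. Its relative Rab38 stood at 0.13 ± 0.21.

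**Figure D3:**
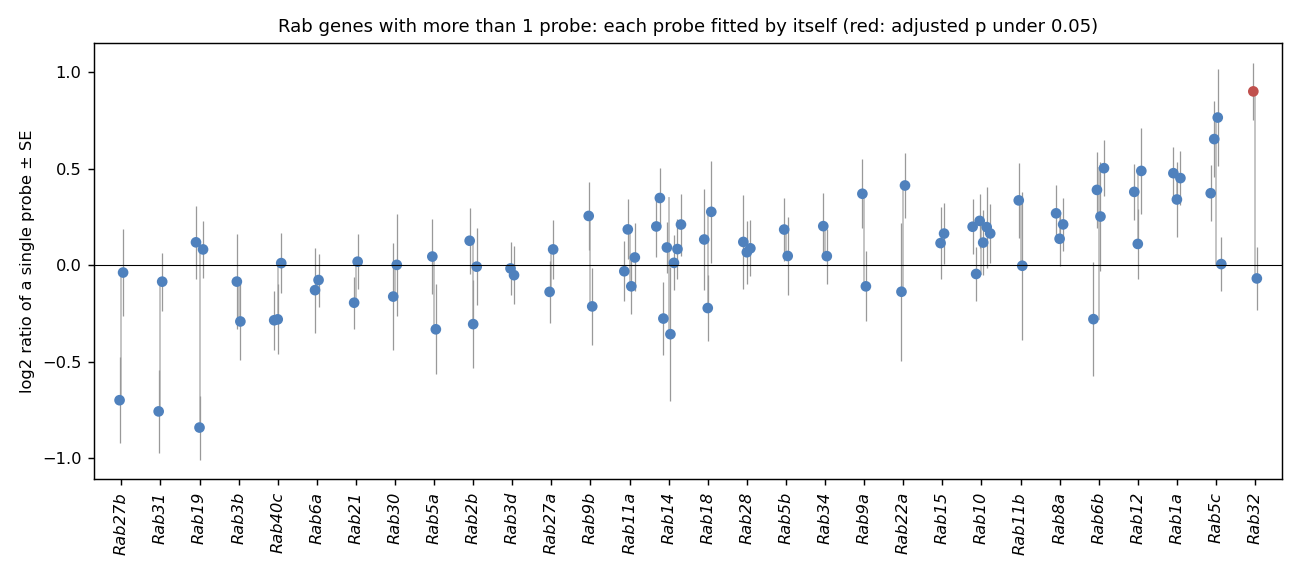
Log2 ratio ± SE of every probe, fitted by itself, for the 30 Rab genes with more than 1 usable probe. The first Rab32 probe (red, 0.90) is the only one past the threshold, and its partner lies at -0.07. The probes of Rab19, Rab6b, Rab5c, Rab14, Rab31 and Rab27b also lie far apart, by 0.66 to 0.96 from lowest to highest. The 3 Rab1a probes lie between 0.34 and 0.48.

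Rab13, which moves junction proteins in epithelia and integrins in lymphocytes, was 0.09, 0.52, 0.47, 0.74 and 0.76 on replicates 1 to 5. Every array was above 0, replicate 1 barely so, and the fit gave 0.54 ± 0.15 (n = 5 arrays, limma adjusted p = 0.173). Rab8a and Rab8b, of transport to the plasma membrane, stood at 0.21 ± 0.13 and 0.28 ± 0.16, and Rab10, of regulated delivery to the cell surface, at 0.14 ± 0.14. Rab8a was above 0 on 5 of 5 arrays, Rab8b on 3.

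Rab27a, the Rab by which cytotoxic lymphocytes dock their granules at the plasma membrane, had the smallest SD over arrays of the tested genes, 0.07. It was -0.12, -0.00, 0.02, -0.08 and 0.06 on replicates 1 to 5, and the fit gave -0.03 ± 0.13, with a 95% interval from -0.33 to 0.28. On the same arrays 6 of 14 cytotoxic lymphocyte markers rose, and the list means ran from 0.37 to 0.81. The markers were mixed: 4 were below 0, with Ncr1 at -0.61 ± 0.19 and Klrd1 at -0.56 ± 0.16, both below 0 on every array. Their bearing on the ratio of Rab27a was not tested. Its relative Rab27b, which serves the dense granules of platelets, was -0.80, -1.0, -0.63, 0.02 and 0.16. Replicates 1 to 3 were below 0 and replicates 4 and 5 just above it, and the fit gave -0.46 ± 0.22 (n = 5 arrays, limma adjusted p = 0.444). Without replicate 2 the ratio was -0.20, and without replicate 4 it was -0.71. Its 2 probes stood at -0.70 ± 0.22 and -0.04 ± 0.22. Platelet markers were lower on every array, with list means from -2.41 to -1.55 and 6 of 8 past the threshold; their part in the ratio of Rab27b was not tested.

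The Rab3 genes, which control regulated exocytosis, were mixed. Rab3c was -1.28, 0.20, -0.25, -0.45 and -1.05 on replicates 1 to 5, and the fit gave -0.49 ± 0.20 (n = 5 arrays, limma adjusted p = 0.348). Rab3a, Rab3b and Rab3d stood at -0.10, -0.19 and -0.03, and Rab26, of secretory granules, at -0.16. For none of the 18 paralog pairs compared across the family could the exact test reach 0.05, since it allows no p below 0.0625 with 5 arrays or 0.125 with 4, so the differences within pairs are descriptions.

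The mean ratios of Rab23, Rab36 and Rab30 had opposite signs in the 2 dye orientations. Rab23, an inhibitor of Hedgehog signalling, was -2.04 and -2.18 on replicates 1 and 5, with the allograft in Cy5, and 1.19 and 1.68 on replicates 2 and 4, with it in Cy3; replicate 3 had no value. Rab36, a relative of Rab34, was -1.62, -0.05 and -1.87 in the first orientation and 0.65 and 0.84 in the second. Rab30, a Golgi Rab, was -1.08, 0.06 and -1.41, then 0.52 and 0.78. The fit, which holds a dye effect, put the graft ratios at -0.34 ± 0.17, -0.22 ± 0.27 and -0.08 ± 0.23, and none passed. On replicate 3, Rab36 and Rab30 were near 0. Mean ratios of opposite sign in the 2 orientations, each mean at least 0.5 from 0, were found for these 3 of 53 Rab genes (5.66%) and for 3.24% of named genes.

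**Figure D4:**
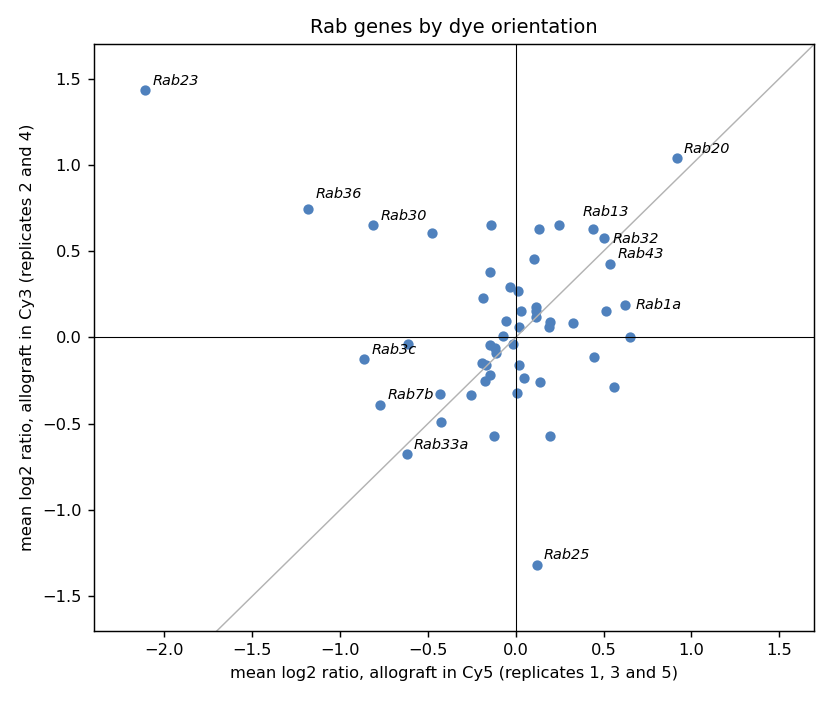
Mean log2 ratio of each tested Rab gene on the arrays with the allograft in Cy5 (horizontal axis, replicates 1, 3 and 5) and in Cy3 (vertical axis, replicates 2 and 4); the grey line marks equal values. Rab20 lies near that line at 0.92 and 1.04, while Rab23, Rab36 and Rab30 lie in the upper left, negative in one orientation and positive in the other.

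The other genes outside these routes were Rab28, Rab29, Rab40b and Rab40c. Rab29, which recruits the kinase LRRK2, stood at -0.17 ± 0.15 and Rab28, of cilia, at 0.09 ± 0.17. Rab40b and Rab40c, which carry a domain for ubiquitin ligase assembly, stood at -0.33 ± 0.17 and -0.18 ± 0.13, and Rab40c was below 0 on 5 of 5 arrays.

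The genes of proteins that load, switch and read Rab GTPases held none that passed either. Of 139 tested genes in 5 lists, 0 passed in limma, against 1.78% of named genes. At an unadjusted p under 0.05 there were 28 (20.1%, against 15.2% of named genes), 15 higher and 13 lower. Over the 139 genes the median log2 ratio was 0.02. The smallest limma adjusted p was 0.100, for Stx3, a SNARE of granule exocytosis, at 0.85 ± 0.20. Stx3 was above 0 on every array, at 1.84, 0.64, 0.91, 0.46 and 0.72.

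Of 6 genes of the membrane cycle, the prenyltransferase subunits Rabggta and Rabggtb stood at 0.34 ± 0.14 and 0.17 ± 0.13, and the GDP dissociation inhibitor Gdi2 at -0.02 ± 0.13. Chm, the escort protein that presents Rabs for prenylation, stood at -0.20 ± 0.21, and Rabac1 and Rabif at -0.13 and -0.03. Of 33 exchange factors, 20 were below 0, with a median of -0.12. Rab3ip (Rabin8), an exchange factor for Rab8, was lowest at -0.96 ± 0.23 on 4 arrays. Hps4, part of the exchange factor for Rab32 and Rab38, followed at -0.47 ± 0.13, with 5 of 5 arrays below 0, and then Dennd1c, which acts on Rab35, at -0.44 ± 0.16. Rinl, Ccz1, part of the Rab7 exchange factor, and Trappc10 were highest, at 0.47, 0.31 and 0.20.

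Of 29 GTPase-activating proteins, 15 were above 0 and 14 below. Tbc1d13 (-0.92 ± 0.26, 4 arrays), Tbc1d24 (-0.83 ± 0.20) and Sgsm1 (-0.44 ± 0.13) were lowest. Tbc1d20, which acts on Rab1, Tbc1d2b and Tbc1d9b were highest, at 0.53, 0.48 and 0.36. Tbc1d20 was above 0 on 5 of 5 arrays.

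Of 47 effectors, 25 were above 0. Myo5a, the myosin that tethers Rab27a-bearing granules to actin, was highest at 0.65 ± 0.16, and above 0 on 5 of 5 arrays. The mitotic kinesin Kif20a, a Rab6 partner, and Sytl3, a synaptotagmin-like protein that binds Rab27, followed at 0.61 ± 0.21 (4 arrays) and 0.58 ± 0.15. Rph3al, an effector of Rab3 and Rab27, Myo5b, a motor for Rab11, and Rilp, the Rab7 effector that recruits dynein, were lowest at -0.57, -0.45 and -0.45. Of 24 tethering and fusion genes 16 were above 0, with Stxbp2, a SNARE-binding protein needed for cytotoxic granule release, at 0.36 ± 0.13 and Vps11 at 0.31. Napa, Vps16 and Vti1a were lowest, at -0.40, -0.32 and -0.23.

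**Figure D5:**
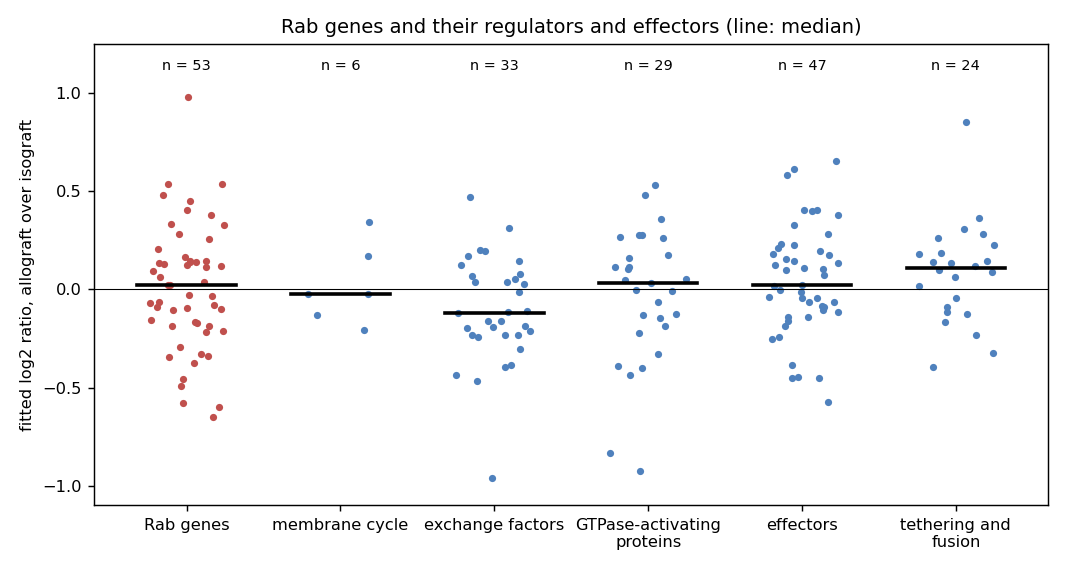
Fitted log2 ratio, allograft over isograft, of the 53 Rab genes (red) and of 139 genes that regulate or serve them (blue), by list; each point is a gene, spread sideways for visibility, and black lines are medians. All medians lie between -0.12 and 0.11, and no point passed the threshold.

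The sequence before the start site is shown for Rab20, with the highest ratio, Rab32, with the only probe past the threshold, and Rab7b, the gene that stood opposite its paralog Rab7a. Windows were taken for the Rab genes with the smallest unadjusted p in limma, which include Rab13, whose window is not printed. The windows run from 250 bases before to 50 bases after the start in RefSeq's GRCr8 assembly, 5′ to 3′ on the gene's strand, and capitals mark matches to the motifs searched. They lie at chr16:84721177-84721476 (plus strand), chr1:6781209-6781508 (minus strand) and chr13:45673195-45673494 (plus strand).
Rab20: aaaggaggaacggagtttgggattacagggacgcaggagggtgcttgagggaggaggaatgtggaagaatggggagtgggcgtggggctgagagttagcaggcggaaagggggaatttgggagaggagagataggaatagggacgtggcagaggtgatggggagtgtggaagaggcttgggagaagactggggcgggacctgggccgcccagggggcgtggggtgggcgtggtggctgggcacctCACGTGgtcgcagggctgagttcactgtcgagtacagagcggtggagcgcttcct
Rab32: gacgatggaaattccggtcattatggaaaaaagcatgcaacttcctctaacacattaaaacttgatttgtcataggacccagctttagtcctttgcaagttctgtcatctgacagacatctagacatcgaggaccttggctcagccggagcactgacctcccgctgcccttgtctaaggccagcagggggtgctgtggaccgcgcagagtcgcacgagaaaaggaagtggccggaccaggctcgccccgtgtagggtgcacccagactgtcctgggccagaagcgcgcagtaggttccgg
Rab7b: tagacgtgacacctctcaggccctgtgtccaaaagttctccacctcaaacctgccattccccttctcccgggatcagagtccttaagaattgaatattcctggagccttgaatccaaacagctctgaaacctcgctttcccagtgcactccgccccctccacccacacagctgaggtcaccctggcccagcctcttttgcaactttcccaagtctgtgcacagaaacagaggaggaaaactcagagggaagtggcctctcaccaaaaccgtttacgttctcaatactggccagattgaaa

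The motifs searched on both strands were the interferon-gamma-activated site TTCNNNGAA, the core of the interferon-stimulated response element (GAAA, any 2 bases, GAAA), and the E-box CACGTG, which many lysosomal genes carry. Rab20 held 1 E-box, and Rab32 and Rab7b held none of the motifs in these letters. The window of Rab13 held none either. Of the 45 Rab genes with a window, 4 (8.89%) held the E-box, Rab5a, Rab20, Rab21 and Rab31, against 6.65% of all 27457 windows of this length. The activated site was found in 2 Rab windows (4.44%), those of Rab11a and Rab25, against 8.68%, and the response element core in 1 (2.22%), that of Rab19, against 3.77%. Rab windows were rich in G and C, with a median of 63.7% against 52.3% in all windows. These matches describe the letters only.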

How the data were processed

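Intravascular mononuclear leukocytes were profiled on 5 dual-colour arrays. The authors deposited a table of log ratios for 44290 spots, read here as log2 values; no source used here gives the log base, scanner, background correction or normalization. The spot order was recovered as 103 rows by 430 columns from the correlation of probes with a shared accession (33 orders compared). All 112 Rab probes matched a RefSeq gene number, and no symbol changed. Probes needed values on at least 4 arrays and in both dye orientations; 407 spots whose ratios followed the dye (mean above 3), none on a named probe, were dropped. Probes of a gene were averaged; limma 3.58.1 (R 4.3.3) then estimated graft and dye effects, with Benjamini-Hochberg adjustment over 33646 rows. The script was tested on simulated data. Precision is limited by the number of arrays; the depth behind each value is unknown.

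Members, lists and alternatives were chosen with earlier results of these data known. Genes named were, per role list, those past the test, those at 0.5 or more from 0, the 2 nearest 0 and paralogs; regulators were named at both ends of each list. Other Rab genes, Ccr2, Cx3cr1, Ncr1 and Klrd1 were named after their values were seen. Paralogs were compared by exact sign-flip permutation in scipy 1.17.1. Alternatives changed the dye term, scaling, missing-value filter, weights, variance prior, spatial trend, probe averaging and arrays used.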

Additional observations from a re-analysis of the deposited data

Results flagged for a closer look

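In 83 genes named above (53 Rab genes and 30 regulators and effectors), each array was compared with the others of the same gene, and 3 genes had 1 array far from the rest. The limit was Dixon's 95% critical value, which by its construction chance passes in about 1 in 20 genes. Rab7b was 0.037 on replicate 4, while the other 4 arrays lay between -0.88 and -0.69. Rab31 was -0.75 on replicate 3, with the others between -0.34 and -0.24. The exchange factor subunit Trappc10 was 1.17 on replicate 4, with the others between -0.29 and -0.02, so that its fitted ratio of 0.20 rests on that array.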

How the results depend on the processing

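The count of Rab genes past the threshold was 0 in 13 of the 15 settings planned, the reported one included. In the others it was 1, Rab32, each time through the same probe. With only probes measured on all 5 arrays, where its second probe drops out, Rab32 stood at 0.90 (limma adjusted p = 0.0380). With each probe by itself, its first probe passed (limma adjusted p = 0.0435). Of the regulators and effectors, 1 passed with quantile normalization (Tbc1d24, -0.86, adjusted p = 0.0489) and 2 with each probe by itself (Stx3, 0.99, and Tbc1d2b, 1.13), otherwise 0. Over all rows, 749 of 33646 passed with quantile normalization, 593 of 41630 (1.42%) with each probe by itself, and between 64 and 149 with an array left out. Arrays scaled to a common spread moved the share of higher calls from 56.3% to 32.3%. Rab genes at an unadjusted p under 0.05 numbered 6 to 12 with an array left out. The share of all genes and unnamed probes at that limit ran from 8.51% (without replicate 4) to 20.9% (without replicate 2). The median Rab ratio ran from -0.049 (without replicate 2) to 0.054 (without replicate 5) in those fits. No Rab gene with an unadjusted p under 0.05 changed sign in a planned setting. With each probe by itself, only the probe with the smallest p of each gene was checked. The second probe of Rab32, at -0.07, had the sign opposite to its gene. Across these settings Rab20 ran from 0.66 to 1.30 and Rab31 from -0.76 to -0.09. With replicates 2 and 4 turned, an alternative chosen after seeing the data, 4 Rab genes had an unadjusted p under 0.05, and 0 of 33646 genes and unnamed probes passed (11.4% at an unadjusted p under 0.05). That 0 depends on leaving out the dye-following spots. With them kept, also chosen after seeing the data, 465 passed, with 1 Rab gene, Rab23, among them. The unadjusted p was under 0.05 for 4 Rab genes again, and for 12.1% of all rows. No paired analysis was possible because each ratio already is the difference between both grafts on 1 array, the pairing that every fit uses, which leaves no further block.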
